A study of Mus musculus with 3 samples.

Results

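A group of 10 genes of the actin cytoskeleton and of its links to the apical membrane was followed across 3 epithelial lineages of the mouse stomach. They are Ezr, Vil1, Actb, Actg1, Cfl1, Wipf2, Tagln2, Pdlim1, Efhd2 and Myh14, 10 of the 18193 genes measured, and they were represented by 19 of the 34945 probe sets that name 1 gene. All probe sets that carry these symbols were taken, apart from the array's own controls. Pdlim1, Efhd2, Myh14 and Wipf2 were selected on high intensities in pit cells relative to the other lineages and Tagln2 on a low one in zymogenic cells, and the rest were chosen with the intensities known. Their differences between arrays are therefore a description and nothing was tested.

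RNA came from pit cells, parietal cells and zymogenic cells of the murine stomach, with 1 Affymetrix Mouse Genome 430 2.0 array for each lineage. Pit cells, the mucous cells of the upper gastric unit, were taken as E-cadherin-positive and DBA-negative cells from a layer 2 to 3 cells thick. Parietal cells, which secrete acid, were told by autofluorescence and by the lectin DBA, and came from the pit zone of the same units. Zymogenic cells, which secrete pepsinogen, bound neither GSII nor DBA but stained for E-cadherin, and they were cut from unit bases on separate slides. No treatment, genotype, strain or age is given in the labels used here. Cells were cut out by laser capture with a spot of 7.5 µm, 3000 to 5000 cells from 4 to 5 mice per lineage, and RNA was pooled to 20 ng and amplified. As each lineage has only 1 pooled array, no replicate error can be given, and for zymogenic cells the lineage and the slides cannot be told apart.

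Actin monomers assemble into filaments that shape the cell, carry myosin motors and form the core of the microvilli on the apical surface of epithelia. Proteins of the ezrin family tie these filaments to membrane proteins, villin bundles or severs them, cofilin disassembles them, and the Arp2/3 complex with its activators starts new branches. Surface mucous cells carry short apical microvilli, and parietal cells have microvilli inside canaliculi that expand when acid is secreted.

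All values given are linear intensities, and a detection floor of 23.3 was used, a level that nearly all probe sets for odorant and vomeronasal receptors stay below. Values under it were raised to it for any fold or log2 difference, and a fold against such a value is a lower bound, written as at least that fold. Of the 10 genes, 7 exceeded the floor on all 3 arrays and 3, Ezr, Vil1 and Efhd2, exceeded it in pit and parietal cells only. Of the 19 probe sets, 16 exceeded it on at least 1 array. By their values as deposited, all 16 were lowest in zymogenic cells, while 13 were highest in pit cells and 3 in parietal cells. Among them, a set each of Tagln2, Pdlim1 and Efhd2 exceeded the floor in pit cells only, so it had to be highest there. The parietal and zymogenic values of those sets were both under the floor, so their order is not resolved.

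Some features of the arrays bear on every value here. For the 1184 genes that passed the floor on all 3 arrays, log2 differences had a median of -0.29 for pit minus parietal, 0.21 for pit minus zymogenic and 0.64 for parietal minus zymogenic. The spiked controls BioB and BioC had mean intensities of 712 for the pit, 303 for the parietal and 711 for the zymogenic array, so that scaling to them moves every pit minus parietal difference downwards. Another spiked control, Cre, did not share this difference, with means of 10052 for the pit, 10520 for the parietal and 10074 for the zymogenic array. These lay near the highest intensities of the arrays, 11141, 12079 and 11325 in the same order, and no scaling to Cre was run. The 3′ control probe set of beta-actin over its 5′ control, a sign of RNA quality and of amplification, was 9.04-fold for the pit, 26.1-fold for the parietal and at least 3.31-fold for the zymogenic array, and its part in the values was not tested. All 6 pit markers of a list of mucous cell genes were above the floor in pit and parietal cells and 0 of 6 in zymogenic cells, with summed intensities of 23390 in pit, 19890 in parietal and 78.7 in zymogenic cells. Of 6 parietal markers, 1 in pit, 4 in parietal and 4 in zymogenic cells were above the floor, with sums of 134.8 in pit, 4921 in parietal and 1244 in zymogenic cells. Of 5 zymogenic markers, 1 in pit, 3 in parietal and 5 in zymogenic cells were above it, with sums of 60.2 in pit, 502 in parietal and 15207 in zymogenic cells. Not every marker ranked its own lineage first. Gkn1 and Gkn2 read 8307 and 2723 in pit but 10493 and 7987 in parietal cells. Muc5ac, Tff1, Psapl1 and Krt20 were highest in pit cells. Atp4a and Kcnq1 read 214 and 29.1 in parietal but 261 and 60.5 in zymogenic cells. Atp4b, at 4402 in parietal cells, and Clic6 were highest there. Pga5 was highest in parietal cells and the other zymogenic markers in zymogenic cells. Pit markers were thus present in the parietal sample and parietal markers in the zymogenic sample, and their part in the values below was not tested. In such pooled samples, fewer cells of a type and less RNA per cell cannot be told apart.

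Cell types that are rich in other actins were looked for on the same arrays. Of 8 smooth muscle markers, 1 in pit, 1 in parietal and 2 in zymogenic cells were above the floor, with sums of 171 in pit, 142 in parietal and 223 in zymogenic cells, and Acta2, smooth muscle actin, accounted for much of this at 83.8 in pit, 83.3 in parietal and 146 in zymogenic cells. Of 6 fibroblast markers, 1 in pit, 3 in parietal and 2 in zymogenic cells were above it, with sums of 77.3 in pit, 283 in parietal and 132 in zymogenic cells. Of 7 leukocyte markers, 2 in pit, 2 in parietal and 3 in zymogenic cells were above it, with sums of 119 in pit, 263 in parietal and 217 in zymogenic cells, and 0 of 4 endothelial markers were on any array. Of 6 endocrine markers, 1 in pit, 0 in parietal and 5 in zymogenic cells were above it, with sums of 65.0 in pit, 39.0 in parietal and 955 in zymogenic cells. Of the smooth muscle markers only Acta2 and Des exceeded the floor on any array, and the Acta2 probe set is of a kind matching several transcripts. The rest of the smooth muscle sums comes from values under the floor, so those sums do not show where smooth muscle was most present. Acta2, Des and the endocrine sum were highest in zymogenic cells, where the 10 genes were lowest, and their part in that was not tested.

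The upstream sequences of Actg1 and Vil1 are shown because they were the only 2 of 9 with a match to the CArG box, the motif bound by serum response factor, a regulator of many actin genes, which reads as the same motif on both strands. The 250 bases before the annotated start of transcription were taken from RefSeq on GRCm38.p6 for 9 of the 10 genes, all but Actb. Capitals mark the CArG match, and each sequence runs 5′ to 3′ along the gene's own strand.
Actg1, chr11:120348496-120348745, minus strand: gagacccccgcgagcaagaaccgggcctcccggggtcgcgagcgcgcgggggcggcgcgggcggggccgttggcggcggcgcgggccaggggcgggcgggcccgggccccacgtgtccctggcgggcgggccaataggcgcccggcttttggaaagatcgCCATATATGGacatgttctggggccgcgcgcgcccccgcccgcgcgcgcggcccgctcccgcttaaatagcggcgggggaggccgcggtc
Vil1, chr1:74409134-74409383, plus strand: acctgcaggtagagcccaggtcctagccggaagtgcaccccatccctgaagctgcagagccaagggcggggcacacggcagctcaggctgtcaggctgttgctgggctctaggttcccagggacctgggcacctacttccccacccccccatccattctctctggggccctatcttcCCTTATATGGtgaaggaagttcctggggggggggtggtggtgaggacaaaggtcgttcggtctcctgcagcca
The match begins at position -90 in Actg1 and at position -73 in Vil1, where -1 is the base before the start. Among all 32851 promoters of the table, 1.47% held a CArG box within the same 250 bases. The motif GGGCGG, on either strand, was found in 7 of the 9 upstream sequences and in 32.7% of all promoters, with 6 matches in Actg1, and it overlapped no CArG match. TATAAA, on either strand, was found in 0 of the 9 and in 12.4% of all. G or C made up from 52% of the bases in Cfl1 to 79.2% in Actg1, beside a median of 52.4% over all promoters. The part of this in the motif counts was not tested. A match is a description of these letters and does not show that a factor binds there.

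Across the 10 genes, 9 were at least 2-fold lower in zymogenic cells than in both other lineages, and the exception was Vil1, whose zymogenic value was under the floor. Of the 4137 genes above the floor on at least 1 array, 11.1% were lower there by the same measure. A gene at or under the floor in pit or parietal cells could not be called so, and all 10 genes were above it in both. Of the 9, Ezr repeated the call in 1 of 1 further probe sets above the floor and Tagln2 in 1 of 2. Actb, Pdlim1 and Efhd2 did so in 0 of 1 each, and Actg1, Cfl1, Wipf2 and Myh14 had no such set. For Pdlim1 and Efhd2 the parietal value of that set was under the floor, so the call could not be made. In pit cells 4 of the 10, Wipf2, Pdlim1, Efhd2 and Myh14, were at least 2-fold higher than in both other lineages, against 5.78% of the 4137 genes. No gene of the 10 was at least 2-fold higher in parietal cells (7.47% of the 4137) or in zymogenic cells (6.89%). The choice of the genes used these contrasts, so nothing follows from these shares. Among these 10, log2 differences had medians of 0.33 for pit minus parietal, 3.43 for pit minus zymogenic and 2.05 for parietal minus zymogenic, beside medians of 0, 0 and 0.14 over the 4137 genes.

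**Figure D1:**
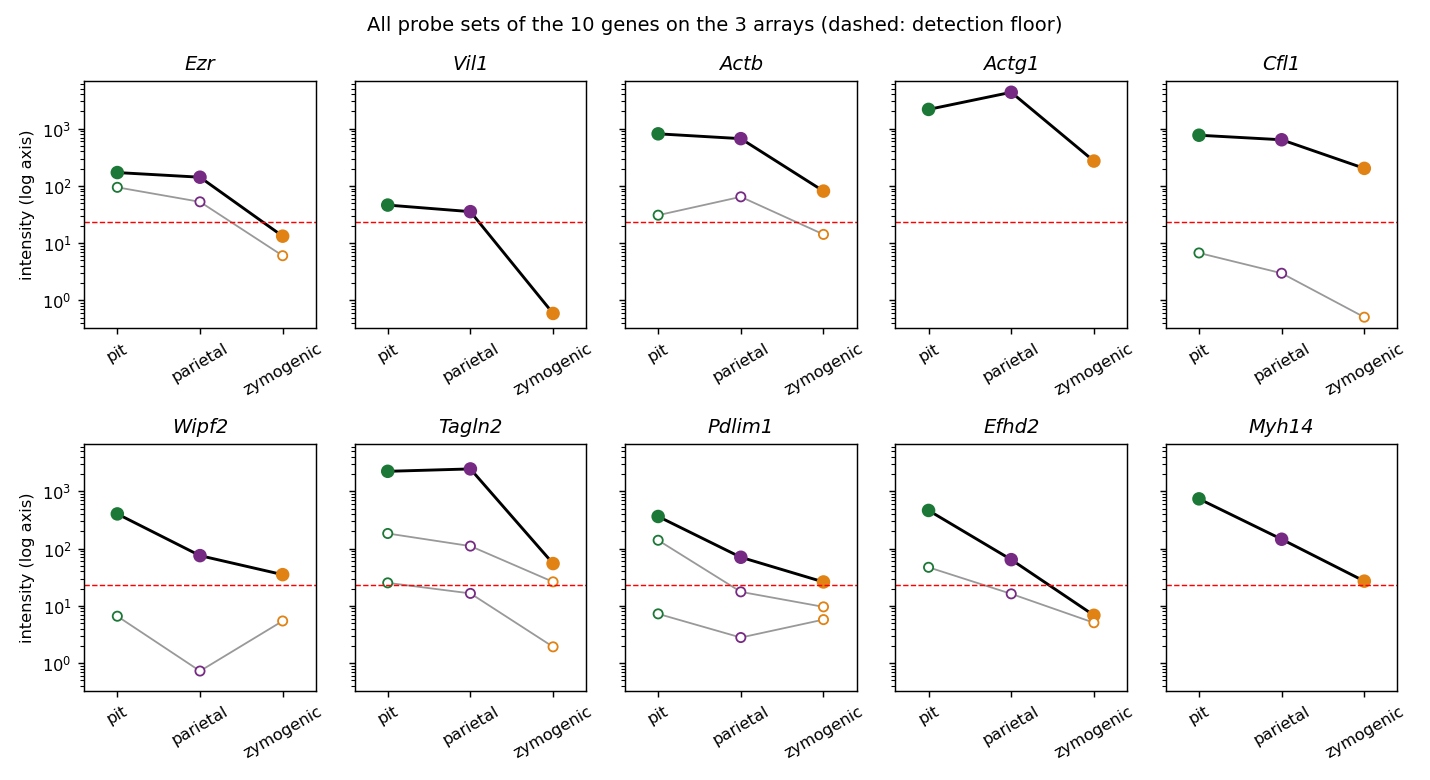
Intensity on a log axis of every probe set of the 10 genes in pit, parietal and zymogenic cells, 1 array each. Filled points joined by a black line are the probe set with the highest mean of its gene, open points its other probe sets, and the dashed line is the detection floor of 23.3. All 16 probe sets that exceed the floor on any array are lowest in zymogenic cells. In a set each of Tagln2, Pdlim1 and Efhd2, however, the parietal value is under the floor as well.

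Ezr codes for ezrin, which links actin filaments to the apical membrane and is known in parietal cells for its place on the canalicular surface. It had an intensity of 171 in pit cells, 142 in parietal cells and 13.2, under the floor, in zymogenic cells. Pit and parietal values lay close together, and the zymogenic value stood well apart from both. Pit over parietal was 1.21-fold, pit over zymogenic at least 7.36-fold and parietal over zymogenic at least 6.11-fold. The other probe set of Ezr had the same order, with 94.5 in pit, 52.7 in parietal and 6.03 in zymogenic cells. Under scaling to BioB and BioC the pit minus parietal log2 difference of Ezr was -0.96 in place of 0.27.

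The relatives and partners of ezrin were a short list. Of 13 other genes for ezrin family proteins and apical linkers, 3 exceeded the floor on any array, and moesin (Msn) and radixin (Rdx), the paralogs of ezrin, were not among them. Slc9a3r1 (also called EBP50), the scaffold that joins ezrin to membrane transporters, read 79.4 in pit cells, 74.1 in parietal cells and 54.3 in zymogenic cells, and was not 2-fold apart between any of them. It is named as the partner of ezrin, with its values known. Its relative Slc9a3r2 read 98.4 in pit, 55.5 in parietal and 18.8 in zymogenic cells, and the kinase Slk, which phosphorylates ezrin family proteins, read 46.8 in pit, 56.6 in parietal and 14.5 in zymogenic cells. Both were at least 2-fold lower in zymogenic cells than in both other lineages, but neither was after quantile normalization, and Slk was not after scaling to BioB and BioC.

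Vil1 codes for villin, the bundling and severing protein of microvilli that is best known from the intestinal brush border. It stood at 46.3 in pit cells, 35.5 in parietal cells and 0.591 in zymogenic cells. Both measured values were within 2-fold of the floor, so that the bounds on the fold, at least 1.99-fold for pit over zymogenic and at least 1.53-fold for parietal over zymogenic, are small. Vil1 has no other probe set.

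Of 21 other microvillus genes on the array, 13 exceeded the floor on at least 1 array, 13 in pit cells, 7 in parietal cells and 1 in zymogenic cells. Of these 13, 6 exceeded it in pit cells only, so that they had to be higher there, and no median is given. Avil (advillin), a relative of villin, read 88.2 in pit cells, 29.7 in parietal cells and 1.66 in zymogenic cells. Vill, the villin-like gene, read 36.4 in pit, 19.7 in parietal and 6.04 in zymogenic cells. Avil, Baiap2l1 (a membrane-bending adaptor of actin), Myo1e and Myo15b were at least 2-fold higher in pit cells than in both other lineages, and none of them was after scaling to BioB and BioC. Myo1a, the brush border myosin that tethers the filament core to the membrane, read 96.1 in pit, 50.2 in parietal and 1.42 in zymogenic cells. Along with Myo1d and Myo5b it was at least 2-fold lower in zymogenic cells than in both other lineages.

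Actb and Actg1 code for the cytoplasmic actins, beta and gamma. Actb stood at 813 in pit cells, 670.0 in parietal cells and 81.2 in zymogenic cells, and pit over zymogenic was 10.02-fold and parietal over zymogenic 8.25-fold. Actg1 stood at 2172 in pit, 4328 in parietal and 272 in zymogenic cells, and pit over zymogenic was 7.99-fold and parietal over zymogenic 15.9-fold. For both genes the zymogenic value lay far below the other two, but they did not share an order of pit and parietal. Pit over parietal was 1.21-fold for Actb, while Actg1 was 1.99-fold lower in pit cells than in parietal cells.

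The probe sets of beta-actin did not settle its order between pit and parietal cells. The other Actb probe set read 30.8 in pit cells, 64.5 in parietal cells and 14.2 in zymogenic cells, 2.09-fold lower in pit cells than in parietal cells. Its zymogenic value was under the floor, so pit over zymogenic was at least 1.32-fold and parietal over zymogenic at least 2.77-fold. The only Actg1 probe set carries the suffix that Affymetrix gives to sets matching several transcripts, and actin genes are near-identical in sequence, so its signal may hold other actins. Of the 4 muscle actins, Acta1 and Acta2 exceeded the floor on any array. Acta1, skeletal muscle actin, read 1.72 in pit, 30.5 in parietal and 3.58 in zymogenic cells, and Actc1 and Actg2 stayed under the floor. Acta2, given above and read by a probe set with the same suffix as that of Actg1, was highest in zymogenic cells, where Actb and Actg1 were lowest.

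Cfl1 codes for cofilin 1, which severs filaments and returns monomers to the pool. It stood at 769 in pit cells, 641 in parietal cells and 203 in zymogenic cells. The zymogenic value was the least far below the others among the genes measured on all 3 arrays by pit over zymogenic, at 3.79-fold, with 3.16-fold for parietal over zymogenic. Its other probe set, with 6.74 in pit, 2.98 in parietal and 0.508 in zymogenic cells, was under the floor on each array, and the set that gave the signal is of the kind marked as able to cross-hybridise.

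Of 27 other genes for binding monomers, severing and capping, 14 exceeded the floor on at least 1 array, and 6 were at least 2-fold lower in zymogenic cells than in both other lineages. No gene of this list was at least 2-fold higher in any lineage than in both others. Tmsb10, a thymosin that sequesters monomers, read 2451 in pit cells, 1647 in parietal cells and 65.4 in zymogenic cells. Tmsb4x, its relative, read 247 in pit, 335 in parietal and 30.2 in zymogenic cells. Dstn (destrin), the paralog of cofilin, read 132 in pit, 149 in parietal and 27.6 in zymogenic cells, which gives 4.78-fold for pit over zymogenic. Capza1 and Capzb, the subunits of the protein that caps filament ends, were 5.81-fold and 5.76-fold higher in pit than in zymogenic cells.

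Wipf2 codes for a partner of N-WASP, the activator of Arp2/3. It stood at 404 in pit cells, 75.4 in parietal cells and 35.1 in zymogenic cells. Pit over parietal was 5.36-fold, pit over zymogenic 11.5-fold and parietal over zymogenic 2.15-fold. Its other probe set, at 6.59 in pit, 0.726 in parietal and 5.44 in zymogenic cells, was under the floor on each array and does not repeat the order. The pit value of Wipf2 thus rests on 1 probe set.

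The Arp2/3 complex and its activators were listed beside Wipf2. Of 25 other genes of this list, 15 exceeded the floor on at least 1 array, and 0 were at least 2-fold higher in pit cells than in both other lineages. Their median log2 difference was 0.08 for pit minus parietal and 0.82 for pit minus zymogenic. After scaling to BioB and BioC these medians were -1.04 and 0.38. Actr3, Arpc2 and Arpc5, subunits of the complex, Cttn (cortactin), which stabilises its branches, and the activator Wasf2 were at least 2-fold lower in zymogenic cells than in both other lineages. Actr3 read 205 in pit cells, 129 in parietal cells and 24.3 in zymogenic cells. Cttn read 422 in pit, 213 in parietal and 59.1 in zymogenic cells. Nck1, an adaptor that binds N-WASP, was the exception, at 1.70 in pit, 63.9 in parietal and 5.17 in zymogenic cells, at least 2.75-fold higher in parietal cells. Wipf1 and Wipf3, the paralogs of Wipf2, stayed under the floor.

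Tagln2 codes for transgelin 2, a calponin family protein that stabilises filaments. It stood at 2243 in pit cells, 2469 in parietal cells and 54.8 in zymogenic cells. Pit and parietal values differed by 1.10-fold, while pit over zymogenic was 40.9-fold and parietal over zymogenic 45.1-fold, both the largest of the 7 genes above the floor on all 3 arrays. A second probe set had 184 in pit, 111 in parietal and 26.3 in zymogenic cells, so that pit stood above parietal there, and pit over zymogenic was 7.0-fold. The remaining set read 25.2 in pit, 16.5 in parietal and 1.92 in zymogenic cells, with only the pit value above the floor. The depth of the zymogenic difference thus varied with the probe set, and the brightest set is of the kind marked as able to cross-hybridise. Tagln and Tagln3, its paralogs, stayed under the floor on each array.

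Pdlim1 codes for an adaptor with a PDZ and a LIM domain that binds alpha-actinin on filaments. It stood at 365 in pit cells, 70.7 in parietal cells and 26.1 in zymogenic cells, with pit over parietal at 5.16-fold and pit over zymogenic at 13.9-fold. A second probe set read 140.0 in pit, 17.6 in parietal and 9.60 in zymogenic cells, so that pit over each other lineage was at least 6.02-fold. The last, at 7.24 in pit, 2.80 in parietal and 5.75 in zymogenic cells, was under the floor on each array. Its relatives Pdlim4, Pdlim5 and Pdlim7 reached at most 29.9 on any array and did not share this order, and Pdlim2 and Pdlim3 stayed under the floor.

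The partners of these adaptors had no common order. Of 28 other genes for bundlers, crosslinkers and LIM adaptors, 16 exceeded the floor on at least 1 array, and 5 of these exceeded it in parietal cells only, so that they had to be higher there. Actn4 (alpha-actinin 4), a crosslinker, read 217 in pit cells, 70.8 in parietal cells and 22.8 in zymogenic cells. Lasp1, a LIM and SH3 adaptor, read 1072 in pit, 484 in parietal and 68.2 in zymogenic cells, and Palld (palladin), a filament scaffold, 67.6 in pit, 26.6 in parietal and 5.17 in zymogenic cells. These 3 were at least 2-fold higher in pit cells than in both other lineages, and 0 of the 3 were after scaling to BioB and BioC. Zyx (zyxin) and Lima1, adaptors with LIM domains, were at least 2-fold lower in zymogenic cells than in both other lineages. Vasp, a filament elongation factor, read 57.5 in pit, 31.9 in parietal and 326 in zymogenic cells, the highest of the 3. Cnn3 (calponin 3) read 12.01 in pit, 111 in parietal and 145 in zymogenic cells and was lowest in pit cells. For Cnn3, 2 of 4 further probe sets above the floor were also at least 2-fold lower in pit cells.

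Efhd2 codes for swiprosin 1, a calcium-binding protein with EF hands that binds filaments. It stood at 465 in pit cells, 64.2 in parietal cells and 6.84, under the floor, in zymogenic cells. Pit over parietal was 7.24-fold, the largest of the 10 genes, and pit over zymogenic at least 20.0-fold. The probe set behind these folds carries the suffix of sets matching several transcripts, as for Actg1, so its signal may hold others. The other probe set read 47.2 in pit, 16.2 in parietal and 5.07 in zymogenic cells, so that pit over each other lineage was at least 2.03-fold. Efhd1, its paralog, stayed under the floor on each array.

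Calcium-linked proteins of the cortex were listed beside Efhd2. Of 6 other S100, annexin and Efhd genes, 4 exceeded the floor. All 4 were at least 2-fold higher in pit cells and lower in zymogenic cells than in both other lineages. Over the 4137 genes the shares were 5.78% and 11.1%. As the list was chosen with earlier results of these data known, nothing follows from 4 of 4. Anxa2, an annexin that joins membranes to filaments, read 971 in pit cells, 201 in parietal cells and 19.7 in zymogenic cells. S100a10, its binding partner, read 396 in pit, 87.4 in parietal and 6.74 in zymogenic cells. S100a6 read 1052 in pit, 295 in parietal and 14.1 in zymogenic cells, and Anxa1 196 in pit, 62.1 in parietal and 0.0184 in zymogenic cells. The median log2 difference of the 4 for pit minus parietal was 2.01, but 0.77 after scaling to BioB and BioC, where only Anxa2 remained 2-fold higher in pit cells than in both other lineages.

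Myh14 codes for the heavy chain of nonmuscle myosin IIC, a motor of the junctional belt of epithelia. It stood at 741 in pit cells, 146 in parietal cells and 27.0 in zymogenic cells. Pit over parietal was 5.08-fold, pit over zymogenic 27.4-fold and parietal over zymogenic 5.40-fold. Myh14 has no other probe set. Myh9, the heavy chain of myosin IIA, read 349 in pit, 229 in parietal and 57.4 in zymogenic cells, so that pit over parietal was 1.52-fold and pit over zymogenic 6.07-fold. Myh10, of myosin IIB, stayed under the floor.

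Of 16 other genes for myosin II and tropomyosin, 10 exceeded the floor on at least 1 array. None was at least 2-fold higher in pit cells than in both other lineages, and 4, Myh9, Myl12a, Tpm3 and Tpm4, were at least 2-fold lower in zymogenic cells. The regulatory light chains differed in their order. Myl12a read 263 in pit cells, 344 in parietal cells and 97.2 in zymogenic cells, while Myl12b read 38.6 in pit, 68.9 in parietal and 181 in zymogenic cells, the highest of the 3. Tpm3, a tropomyosin that coats filaments, read 325 in pit, 296 in parietal and 51.6 in zymogenic cells. Tpm4, its relative, read 199.9 in pit, 104 in parietal and 6.70 in zymogenic cells.

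**Figure D2:**
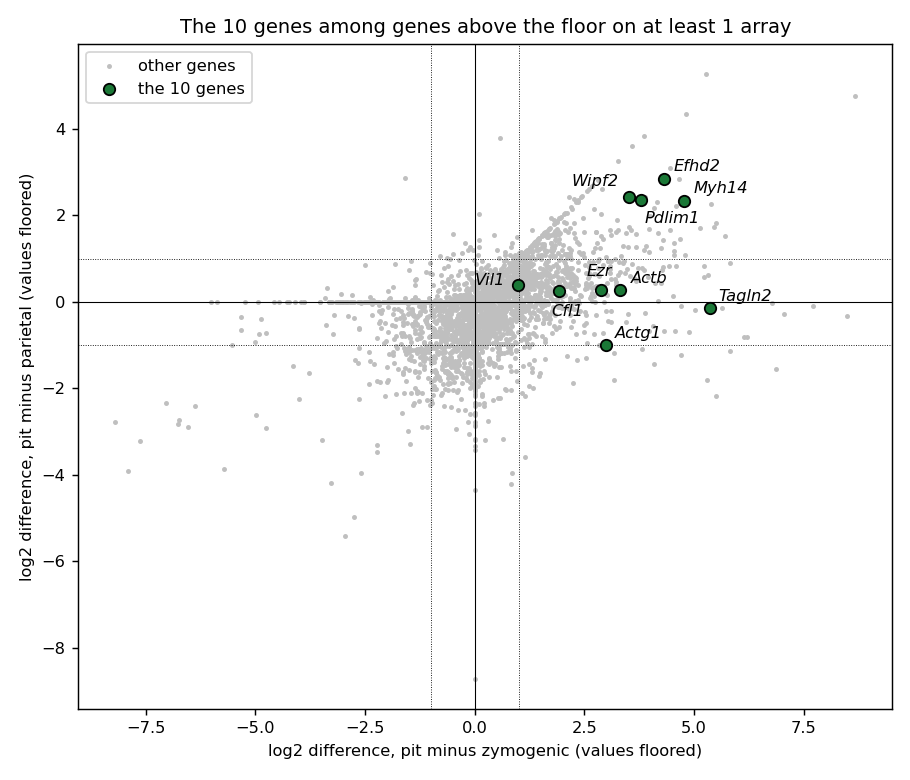
Log2 difference of each gene between arrays, pit minus zymogenic on the horizontal axis and pit minus parietal on the vertical axis, for the 4137 genes above the floor on at least 1 array (grey) and the 10 genes (green). Dotted lines mark 2-fold, and lower values were set to the floor. Efhd2, Wipf2, Pdlim1 and Myh14 lie between 2.34 and 2.86 on the vertical axis and the other 6 between -0.99 and 0.38, and scaling to BioB and BioC lowers the vertical values, to below 0 for those 6.

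The choice of Wipf2, Pdlim1, Efhd2 and Myh14 on their pit values set them apart from the other 6 in pit against parietal cells, and the sizes are a description. These 4 had pit minus parietal log2 differences of 2.34 to 2.86, and the other 6 genes had -0.99 to 0.38. Relative to the median of -0.29 over the 1184 genes, the 4 lay at 2.63 to 3.15 and Actg1 at -0.70. Parietal minus zymogenic differences of the 4 were 1.10 to 2.43. Those of the other 6 ranged from 0.61 in Vil1, whose zymogenic value was under the floor, to 5.49 in Tagln2. As a gauge of disagreement between probe sets, differing sets of the same gene gave log2 differences with an SD of 0.477, over 781 pairings of a gene with 2 arrays. That SD holds no spread between arrays, amplifications or animals, so it is not an error of a difference between lineages. The pit minus parietal values of Ezr, Vil1, Actb, Cfl1 and Tagln2, between -0.14 and 0.38, are within that SD.

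The direction of pit against parietal depended on the scaling for Ezr, Vil1, Actb, Cfl1 and Tagln2, and Actg1 was at 0 after quantile normalization. The 4 genes with a high pit value kept log2 differences of 1.11 to 2.97 for pit minus parietal under all 4 scalings. With BioB and BioC, the other 6 were at -2.23 to -0.85, and with quantile normalization they were at 0 to 1.0. Against the zymogenic array, the pit value was higher for 10 of 10 genes under each scaling, as was the parietal value. After quantile normalization, however, 6 of the 10 in place of 9 were at least 2-fold lower in zymogenic cells than in both other lineages, as parietal minus zymogenic log2 differences were 0.82 for Cfl1, 0.57 for Wipf2 and 0.99 for Pdlim1.

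**Figure D3:**
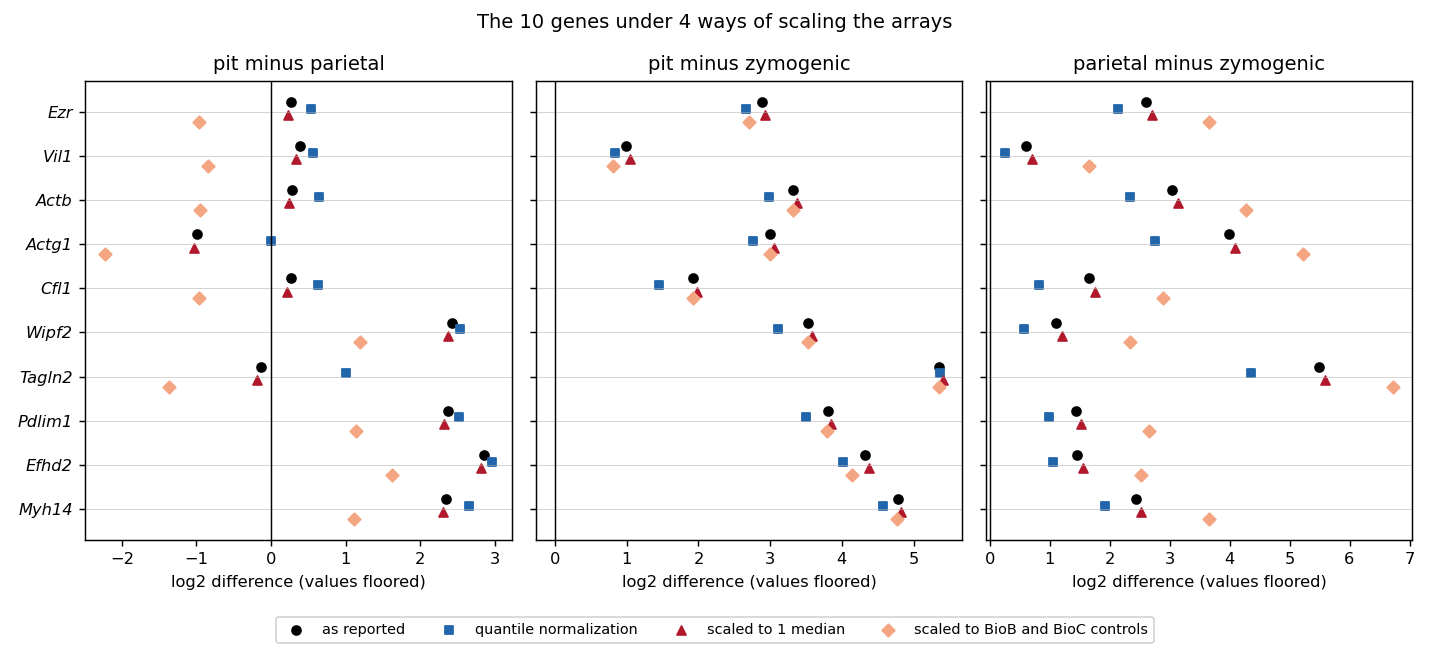
Log2 difference of the 10 genes between pairs of arrays, with the values as deposited and under 3 other scalings of the arrays. Values were floored, and each point is 1 gene under 1 scaling. Wipf2, Pdlim1, Efhd2 and Myh14 stay above 1 for pit minus parietal under all 4, the other 6 genes turn to or stay below 0 with the BioB and BioC controls, and all 10 stay above 0 against the zymogenic array.

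Taking the 8 lists of other actin genes as a whole, 140 of 149 listed genes had a probe set naming 1 gene and 77 exceeded the floor on at least 1 array. Of these 77, 28 (36.4%) were at least 2-fold lower in zymogenic cells than in both other lineages, beside 11.1% of the 4137 genes. In pit cells 11 (14.3%) were at least 2-fold higher than in both others, beside 5.78%. Of the 11, Myo1e and Myo15b exceeded the floor in pit cells only, so they had to be higher there. As the lists were chosen with earlier results of these data known, nothing follows from these shares. By the same measure only Nck1 was higher in parietal cells, only Vasp and Myl12b were higher in zymogenic cells, and only Cnn3 was lower in pit cells, beside 2.61% of the 4137 genes. The median log2 difference of the 77 was 0.29 for pit minus parietal and 0.97 for pit minus zymogenic. Over the 4137 genes they were 0 and 0, and over 86 genes after scaling to BioB and BioC -0.74 and 0.52. Both medians of the 77 fall on genes above the floor in pit cells only, which had to be higher there. Nothing follows from them. Of the 28, 14 had a further probe set above the floor, and 6 of these had a further one with the same call. They were Gsn (gelsolin, named after its values were seen) with 4 of 4 further sets, Actr3 with 2 of 2, Cttn with 1 of 1, Lasp1 with 3 of 4, and Tmsb10 and Tpm3 with 1 of 2 each. The other 8 had it in none, namely Myh9 in 0 of 4, Slc9a3r2 in 0 of 3, Lima1 in 0 of 2, and Slk, Capza1, Myl12a, S100a10 and Anxa2 in 0 of 1 each. Of the 11 higher in pit cells, 4 had a further set above the floor, and the call was also made in 2 of 4 for Lasp1 and 1 of 1 for Anxa2 but in 0 of 1 for Baiap2l1 and for S100a10. After scaling to BioB and BioC, 26 of the 28 remained lower in zymogenic cells and 1 of the 11 remained higher in pit cells, while 31 of 86 genes above the floor were then higher in parietal cells. The 2 lost in zymogenic cells were Slk and Myo5b, and Anxa2 was the 1 that remained in pit cells. After quantile normalization 21 of the 28 and 10 of the 11 remained, and those lost were Slk, Slc9a3r2, Myo1a, Myo5b, Lima1, Myh9, Myl12a and, for pit cells, Myo15b. Myl12b was not 2-fold higher in zymogenic cells after scaling to BioB and BioC.

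**Figure D4:**
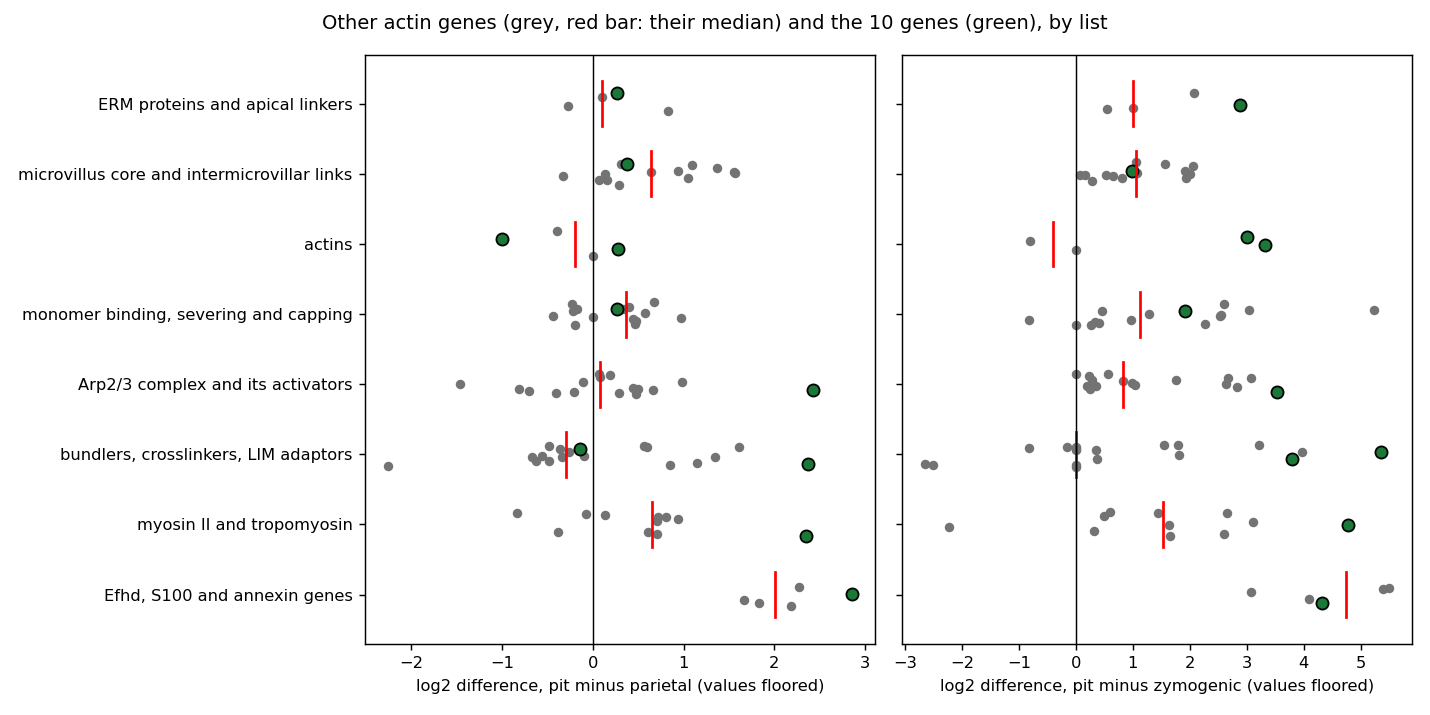
Log2 difference, pit minus parietal on the left and pit minus zymogenic on the right, of other actin genes above the floor on at least 1 array, by list. Grey points are genes, red bars the median of the grey points and green points the 10 genes, with values floored. On the left, Wipf2, Pdlim1, Efhd2 and Myh14 lie above all grey points of their lists, which their choice on high pit values favours. The grey points of the Efhd, S100 and annexin list have a median of 2.01, which is 0.77 after scaling to BioB and BioC.

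Genes common to epithelia varied in the same samples. Cdh1, the E-cadherin gene whose product was stained to choose pit and zymogenic cells, read 298 in pit cells, 211 in parietal cells and 21.5, under the floor, in zymogenic cells. Krt8 read 3672 in pit, 5879 in parietal and 155 in zymogenic cells, Krt18 1155 in pit, 4436 in parietal and 487 in zymogenic cells, and Epcam 36.7 in pit, 42.4 in parietal and 30.6 in zymogenic cells. The low zymogenic values of the actin genes thus went along with low values of Cdh1, Krt8 and Krt18, though not of Epcam, and the part of that in the result was not tested. All Epcam values lay within 2-fold of the floor, so a 2-fold lower zymogenic value could not have shown there. Its probe set is also of the kind marked as able to cross-hybridise. These epithelial genes were chosen after values had been seen.

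Genes with a pattern like that of Ezr and of Pdlim1 were ranked by the largest absolute difference in log2 value over the 3 arrays, each gene centred on its own mean, among 1177 genes above the floor on all 3. Nearest to Ezr, with its zymogenic value at the floor, were Lad1, Tpm3 and Trim25, at 0.10, 0.12 and 0.14. Lad1 read 436 in pit cells, 339 in parietal cells and 63.9 in zymogenic cells. Nearest to Pdlim1 were Abhd2, Plec and Rhoc, at 0.32, 0.41 and 0.51. Plec, which codes for the linker plectin, read 439.7 in pit, 139 in parietal and 45.5 in zymogenic cells, and Rhoc, a small GTPase that acts on the actin cytoskeleton, read 385 in pit, 93.3 in parietal and 52.7 in zymogenic cells. A likeness over 3 arrays is a description and many genes can share it.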

How the data were processed

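RNA of pit, parietal and zymogenic cells was measured on 1 array each, grouped by sample title. Each probe set has a linear intensity, as the authors deposited it. How the authors summarised probes, corrected background and scaled arrays is not given in the sources used here, and the depositors' molecule label reads nuclear RNA where the design text speaks of total RNA.

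Of 45101 probe sets, 64 controls and 932 that name several genes were left out, and no set of the second kind names a gene of the 10. Symbols were updated through gene identifiers of a RefSeq table for GRCm38.p6. Of several probe sets of a gene, that of the highest mean stands for it. The floor is the highest, over arrays, of the 95th percentile of 80 receptor probe sets. No test was run, since no lineage has a replicate, and the number of arrays limits the precision. Alternatives were 3 other scalings, other floors, the floor as a pseudocount, other choices of probe set and thresholds of 1.5-fold and 4-fold. Genes, lists and rules were chosen with earlier results of these data known. Genes named from a list are those at least 2-fold apart from both other arrays, up to 5 each way, and paralogs of the 10, and the text says where another was named. Python 3.11.15, numpy 2.4.6, pandas 2.3.3 and matplotlib 3.10.9 were used. On simulated data only the call of genes higher in pit cells was tried, with a large rise put in. The calls of lower genes and those for the other lineages were not tried.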

Additional observations from a re-analysis of the deposited data

Results flagged for a closer look

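The array's own beta-actin control probe sets, which were left out of the values of Actb, carried signal as well. The 3′ control read 332 in pit cells, 619 in parietal cells and 77.0 in zymogenic cells, all above the floor of 23.3. The pit value was thus below the parietal value there, as for 1 of the 2 Actb probe sets, while the brighter Actb probe set had the pit value above the parietal value. The zymogenic value was the lowest in all 3. The 5′ control had the opposite order of pit and parietal, at 36.8 in pit cells, 23.7 in parietal cells and 5.23, under the floor, in zymogenic cells. The control from the middle of the transcript read 12.03 in pit, 29.5 in parietal and 7.13 in zymogenic cells, with only the parietal value above the floor. The 3′ control of Gapdh, an enzyme of glycolysis, read 92.9 in pit, 198 in parietal and 47.8 in zymogenic cells.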

How the results depend on the processing

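No paired analysis was possible because each lineage has 1 array, and leaving out a replicate was not possible for the same reason. The count of genes at least 2-fold higher in pit cells was 0 with a floor of 868, the 99th percentile for the receptors, and 9 without the parietal array, against 4 as reported and 3 to 5 otherwise. The count at least 2-fold lower in zymogenic cells, 9 as reported, was 6 after quantile normalization, 8 with the floor as a pseudocount, 10 with a floor at the 90th percentile or at 1.5-fold, 2 with the 99th percentile floor, 5 with the mean over probe sets of a gene, 5 of 7 with transcript-specific and 6 of 9 with gene-specific probe sets and 5 at 4-fold. The count at least 2-fold higher in parietal cells, 0 as reported, was 1 with 1 median, 2 with BioB and BioC and 1 at 1.5-fold. The median log2 difference for pit minus parietal was 0.82 after quantile normalization and -0.90 with BioB and BioC. For pit minus zymogenic it was 0 with the 99th percentile floor, 2.93 with the floor as a pseudocount, 2.29 with averaged probe sets and 2.88 with probe sets specific to 1 gene. For parietal minus zymogenic it was 1.48 after quantile normalization, 3.28 with BioB and BioC, 0 with the 99th percentile floor, 1.36 with averaged probe sets, and 1.43 with probe sets specific to 1 transcript or to 1 gene. The alternatives without an array and with probe sets specific to 1 gene were added after the data were seen. Where no value above shows it, the cause was not tested. Of 258 further values of the 10 genes, 164 moved by less than the SD of 0.477 and 94 by more, and none that was at least 2-fold as reported changed sign. Values near the floor limit Vil1 most.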
